A study of Drosophila melanogaster with 12 samples.

Results

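The DNA replication genes are the 39 genes of the origin recognition complex, the loading and activation factors, the MCM helicase, the GINS complex, the replicative polymerases with primase, PCNA and its loader, replication protein A, the enzymes that join lagging-strand fragments, and ribonucleotide reductase. They were chosen by name, with older names accepted, and all 39 matched a locus of their own or a shared one among the 16191 loci of the table, 9253 of which are protein-coding and reached 1 FPKM in at least 1 group. FPKM, the number of fragments scaled by transcript length and by the mapped fragments of a library, is a level per length, so that genes can be set beside each other on it. All 39 genes passed this minimum. Prim1 is the only member whose value is shared with other genes, Pex2 and CG7083, and its value is that of the whole locus.

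RNA on ribosomes was pulled down from whole female Drosophila melanogaster through FLAG-tagged RpL13A, a ribosomal protein that the PromE-Gal4 driver expresses in oenocytes (PromE > RpL13A-FLAG), the fly cells with liver-like functions. The flies of all 4 groups, 3 libraries each and 12 in all, were mated females, and each library came from a pool of females. The labels give the ages as 14 days for H2O-Young and PQ-Young and 28 days for H2O-Aged and PQ-Aged, whereas the text of the study gives other ages. PQ flies were kept for 24 h on food coated with 10 mM paraquat, a herbicide that generates superoxide, and H2O flies on food coated with water.

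Each group has 1 FPKM per locus, the authors' value for its 3 libraries together, so there is no SD, no n and no test between groups, and a library standing apart within its group could not be seen or left out. The study describes a library of H2O-Young that did not group with the others of that condition, so the values of H2O-Young include a library set apart. These values enter the comparisons of age in water and of paraquat in young flies, and the patterns over the groups. Where 4 levels of a gene follow each other, they are those of young flies on water and on paraquat and then of aged flies on water and on paraquat. The age ratio sets aged over young flies and the paraquat ratio paraquat over water, and both are on the log2 scale unless given as a fold. A ratio between genes of 1 group is that of their FPKM, not a log2 value. A gene was counted as higher or lower when its group values differed by at least 2-fold, and the percent of all 9253 loci past that fold stands beside the counts.

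To copy its chromosomes, a cell loads the ring-shaped MCM helicase onto origins marked by the origin recognition complex with the help of Cdc6 and the fly Cdt1 protein, double parked. Cdc45 and GINS then join MCM to form the active helicase, primase with DNA polymerase alpha starts each strand, and polymerases epsilon and delta extend it while held by the sliding clamp PCNA. These genes are known for high expression in dividing cells and in endocycling cells, which copy their DNA without dividing, and the nurse and follicle cells of the ovary are textbook cases of the second kind.

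The DNA replication genes had their lowest value in H2O-Young in 31 of 39 cases (79.5%), against 32.8% of all loci. The median member level was 26.8 and 35.9 FPKM in young flies (water, paraquat) and 40.1 and 33.6 in aged flies, while the median of all loci moved only between 15.8 and 17.4 FPKM. H2O-Aged held the highest value of 22 members (56.4%, against 27% of all loci) and PQ-Aged that of 10 (25.6%, against 18.1%). PQ-Young held that of 4 (10.3%, against 13.2%) and H2O-Young that of 3 (7.69%, against 41.7%). Both aged groups lay above both young groups for 23 members (59.0%), against 30.8% of all loci. Under the 4 scalings of the groups given below, H2O-Young was lowest for 29 (Gapdh1) to 37 (summed FPKM) of the 39. The share of all loci lowest in H2O-Young was 36.1% (Gapdh1) and 68% (summed FPKM). The members lowest elsewhere were Mcm7, lat, Prim1, PolE1, Pole2, RPA3, Psf1 and Psf3.

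**Figure D1:**
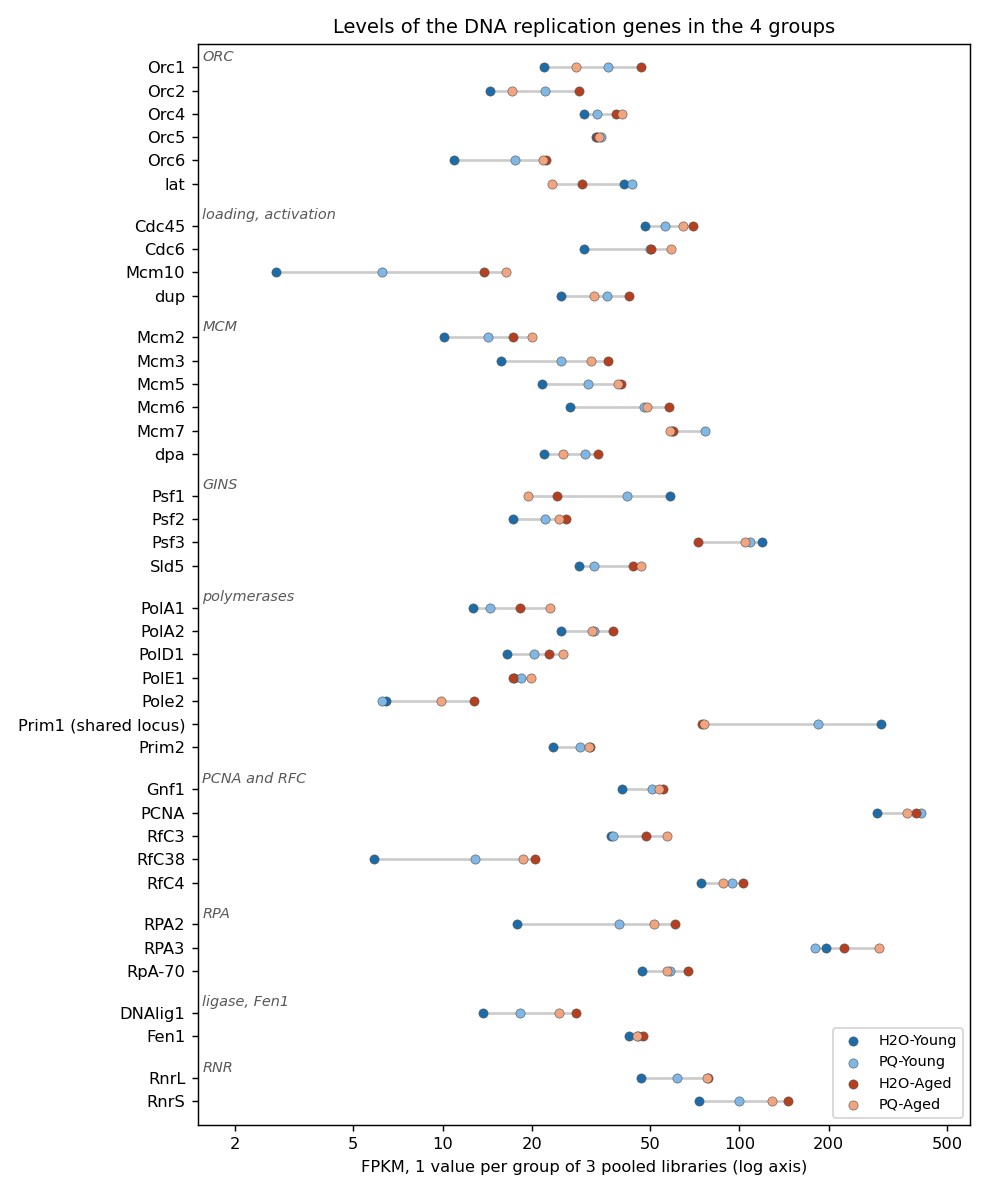
FPKM of the 39 DNA replication genes on a log axis, 1 row per gene and 1 point per group (the authors' value for 3 pooled libraries, hence no error bars), ordered by complex. The H2O-Young point is the leftmost for 31 genes, and Mcm10, RfC38 and RPA2 have the widest rows on its right, while the rows of Psf1 and of the shared Prim1 locus run the other way.

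The origin recognition complex marks the sites where replication can begin. Orc1, its ATPase subunit that works with Cdc6, stood at 21.9 and 36.2 FPKM in young flies (water, paraquat) and 46.5 and 28.2 in aged flies. Orc2, a core subunit, had 14.5, 22.2, 28.9 and 17.2 FPKM in the same order. Both genes peaked in H2O-Aged and were lower again in PQ-Aged, and they were the members with the lowest paraquat ratios in aged flies, at -0.72 for Orc1 and -0.75 for Orc2. Orc6, the smallest subunit, measured 10.9 and 17.5 FPKM in young flies (water, paraquat) and 22.4 and 21.8 in aged flies, so that its aged groups were close together. For Orc4 the values were 30.02, 33.0, 38.4 and 40.3 FPKM. Orc5 was the flattest of all members, between 32.8 and 34.2 FPKM, a range of 1.04-fold. The gene lat (latheo), which encodes the Orc3 subunit, went the other way from Orc1 with age in water (not when the groups were scaled by summed FPKM), at 40.8 and 43.6 FPKM in young flies (water, paraquat) and 29.4 and 23.3 in aged flies. Over its whole longest transcript of 3315 bases, lat overlaps the exons of CG34315 on the same strand, so reads of these genes cannot be told apart by position. The lat to Orc6 ratio of FPKM went from 3.74 in H2O-Young to 1.32 in H2O-Aged and 1.07 in PQ-Aged.

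The loading and activation factors bring MCM to the origin and switch it on. Mcm10, which helps to activate the loaded helicase, had the lowest level of all members in H2O-Young, 2.76 FPKM, and reached 6.25 in PQ-Young, 13.8 and 16.4 in aged flies (water, paraquat). These values made its age ratio in water 5.01-fold and its paraquat ratio in young flies 2.27-fold, the largest of the 39 in both comparisons, and it was 2.63-fold higher in PQ-Aged than in PQ-Young. Mcm10 lies on chromosome 2L from 21179933 to 21182812 on the plus strand (dm6), and 367 bases of its exons overlap those of Ret on the other strand, which stood at no more than 0.57 FPKM in any group. Cdc6, the helicase loader, had 30.01 and 50.2 FPKM in young flies (water, paraquat) and 50.2 and 59.0 in aged flies. The gene dup (double parked), the fly Cdt1, stood at 25.2, 35.9, 42.5 and 32.4 FPKM. In PQ-Young Cdc6 was thus at its H2O-Aged level, while dup lay between the water groups. Cdc45, a part of the active helicase, measured 48.1, 56.2, 69.6 and 64.4 FPKM.

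The MCM complex unwinds the DNA. Mcm3 had 15.7 and 25.2 FPKM in young flies (water, paraquat) and 36.2 and 31.6 in aged flies. Mcm6 had 26.8, 47.7, 57.9 and 48.8 FPKM. These subunits passed 2-fold with age in water, at 2.31-fold for Mcm3 and 2.16-fold for Mcm6. Mcm5 followed at 21.6, 30.9, 40.1 and 39.1 FPKM, and a ratio of 1.85-fold. Mcm2 stood at 10.1, 14.3, 17.3 and 20.0 FPKM, the only subunit that was highest in PQ-Aged. The gene dpa (disc proliferation abnormal), which encodes Mcm4, had 21.9, 30.2, 33.4 and 25.5 FPKM. Mcm7 was the exception of the complex and also its most abundant transcript per length, with 59.1 and 76.5 FPKM in young flies (water, paraquat) and 59.7 and 58.2 in aged flies. The antisense RNA CR45871 covers 2003 bases of the Mcm7 exons and was listed at no more than 0.22 FPKM. The other subunits were higher in H2O-Aged than in H2O-Young while Mcm7 was at 1.01-fold. The Mcm7 to Mcm2 ratio went from 5.85 in H2O-Young to 3.46 and 2.91 in aged flies (water, paraquat), and the spread of the 6 subunits narrowed from 5.85-fold in H2O-Young to 3.46-fold in H2O-Aged. Mcm2 (chromosome 3R, 8264970 to 8267924, plus strand) and RpA-70 (chromosome 3R, 8262120 to 8264451, minus strand) are neighbours whose starts lie 518 bases apart and point away from each other in dm6, with age ratios in water of 0.77 and 0.52.

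GINS is the component of the active helicase beside MCM and Cdc45, and its subunits differed from each other in their values. Psf2 had 17.3 and 22.2 FPKM in young flies (water, paraquat) and 25.97 and 24.7 in aged flies. Sld5 had 28.8, 32.5, 43.8 and 46.8 FPKM. Both were thus higher in the aged than in the young groups, as most members were. Psf1 ran against them, at 58.6, 41.9, 24.3 and 19.5 FPKM, which made it 0.41 times as high in H2O-Aged as in H2O-Young. Psf3 was at 119 and 108 FPKM in young flies (water, paraquat) and 72.4 and 105 in aged flies. The order of Psf1 and Sld5 turned, with a Psf1 to Sld5 ratio of 2.04 and 1.29 in young flies (water, paraquat) and 0.55 and 0.42 in aged flies. Psf1 overlaps no other gene, whereas 831 bases of the Psf3 exons lie opposite CG17841. On water CG17841 was at 150 FPKM in young and 91.1 FPKM in aged flies, and had the same age ratio as Psf3, -0.72. The paraquat ratios of Psf3 and CG17841 were -0.14 and -0.22 in young flies, and 0.53 and 0.06 in aged flies. Their ratios with age in paraquat were -0.05 and -0.45.

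DNA polymerase alpha and primase lay down the short RNA and DNA primers. PolA1, the catalytic subunit, stood at 12.7 and 14.5 FPKM in young flies (water, paraquat) and 18.2 and 23.0 in aged flies. PolA2, the accessory subunit, had 25.0, 32.5, 37.5 and 32.0 FPKM. Prim2, the large primase subunit, had 23.6, 29.0, 31.3 and 31.2 FPKM. All 3 were lowest in H2O-Young. The value for Prim1, the small primase subunit, was 299.8 and 185 FPKM in young flies (water, paraquat) and 75.1 and 76.3 in aged flies. It covers chromosome 3L up to position 8344404 and includes Pex2, a peroxisome assembly gene, and CG7083, so how much of it is Prim1 cannot be told from the table. This locus was the highest member value in H2O-Young and the one with the lowest age ratio in water, -2.00.

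Polymerase delta makes the lagging strand and polymerase epsilon the leading strand. PolD1, the catalytic subunit of delta, had 16.5 and 20.3 FPKM in young flies (water, paraquat) and 22.9 and 25.5 in aged flies. PolE1, that of epsilon, was nearly flat at 17.4, 18.3, 17.2 and 19.9 FPKM. Its partner subunit Pole2 was at 6.45 and 6.26 FPKM in the young groups and at 12.7 in H2O-Aged and 9.91 in PQ-Aged. The PolA1 to PolE1 ratio passed from 0.73 in H2O-Young to 1.06 in H2O-Aged, so that the order of these catalytic subunits turned.

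PCNA is the ring that holds a polymerase on DNA, and replication factor C (RFC) opens and loads it. In each group PCNA was the member with the highest level apart from the shared Prim1 locus, with 291 and 409 FPKM in young flies (water, paraquat) and 392 and 366 in aged flies, and in H2O-Young it lay above 92.3% of all loci. RfC38, an RFC subunit, was low in H2O-Young at 5.88 FPKM and had 12.8 in PQ-Young, 20.5 and 18.7 in aged flies (water, paraquat). It was 3.48-fold higher with age in water and 2.18-fold higher with paraquat in young flies, while Nup160, whose exons cover 404 bases of the opposite strand, stayed between 9.30 and 10.2 FPKM. The remaining RFC genes differed less between groups. RfC4 had 74.3, 94.4, 103 and 87.7 FPKM. Gnf1, the large subunit, had 40.2, 50.7, 55.5 and 53.7 FPKM. RfC3 was equal in the young groups, at 37.1 and 37.4 FPKM, and had 48.4 in H2O-Aged and 57.2 in PQ-Aged. The PCNA to RfC4 ratio lay between 3.83 and 4.33 in all groups, while the PCNA to RfC38 ratio went from 49.5 in H2O-Young to 19.1 in H2O-Aged.

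Replication protein A coats the single strands behind the helicase. RPA2, its middle subunit, had 17.8 and 39.3 FPKM in young flies (water, paraquat) and 60.5 and 51.5 in aged flies, which is 3.39-fold higher with age in water and 2.21-fold higher with paraquat in young flies. Its exons overlap no other gene. RpA-70, the large subunit, had 46.9, 58.2, 67.3 and 56.8 FPKM. RPA3, the smallest, had 196, 180, 225 and 295 FPKM and was highest in PQ-Aged. Although the 3 proteins form 1 complex, their transcript levels were far apart in H2O-Young and closer in the other groups, with an RPA3 to RPA2 ratio of 11.0 and 4.58 in young flies (water, paraquat) and 3.72 and 5.72 in aged flies.

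Fen1 and DNA ligase finish the lagging strand. DNAlig1, which seals the nicks, had 13.7 and 18.2 FPKM in young flies (water, paraquat) and 28.2 and 24.7 in aged flies, 2.06-fold higher with age in water. Fen1, the flap nuclease that acts before it, was nearly flat at 42.6, 45.7, 47.2 and 45.2 FPKM.

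Ribonucleotide reductase makes the deoxyribonucleotides. RnrS, its small subunit, had 73.2 and 99.7 FPKM in young flies (water, paraquat) and 146 and 128 in aged flies. RnrL, the large subunit, had 46.6, 61.9, 78.2 and 77.8 FPKM. The subunits kept nearly the same ratio, RnrS to RnrL, of 1.57 and 1.61 in young flies (water, paraquat) and 1.86 and 1.65 in aged flies.

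In water, 34 of 39 members (87.2%) were above their young level in aged flies, against 46.2% of all loci. The median log2 ratio of the 39 was 0.59, against -0.11 for all loci. The middle of the members, between their quartiles, lay from 0.37 to 0.99, and that of all loci from -0.93 to 0.61. At least 2-fold higher were 8 members (20.5%), against 13.8% of all loci, namely Mcm10, RfC38, RPA2, Mcm3, Mcm6, Orc1, DNAlig1 and Orc6. At least 2-fold lower were 2 members (5.13%), the Prim1 locus and Psf1, against 23.5% of all loci. The count of higher members rested on small margins, since Orc6 was at 2.05-fold, while Orc2 at 1.997-fold, RnrS at 1.99-fold and Pole2 at 1.97-fold lay just under the limit. At 1.5-fold 20 members were higher, against 25.8% of all loci at that fold. By complex, the median ratio was 0.87 for ribonucleotide reductase, 0.83 for MCM, 0.75 for loading and activation, 0.68 for the origin recognition complex, 0.60 for DNAlig1 with Fen1, 0.52 for replication protein A, and 0.47 both for PCNA with RFC and for the polymerases with primase. GINS had -0.06, a value that turns positive under each of the 4 scalings, with Psf1 and Psf3 below 0 and Psf2 and Sld5 above it.

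With paraquat in young flies, 34 of 39 members (87.2%) again lay above the water group, against 46.9% of all loci. The member median was 0.36, against -0.04 for all loci. At least 2-fold higher were 3 members (7.69%), Mcm10, RPA2 and RfC38, against 3.02% of all loci, and none was 2-fold lower, against 8.65%. The 5 members with a ratio below 1 were the Prim1 locus at -0.70, Psf1 at -0.48, Psf3 at -0.14, RPA3 at -0.12 and Pole2 at -0.04. PQ-Young lay between H2O-Young and H2O-Aged, upwards, in 29 members (74.4%) and 31.2% of all loci. The age ratio in water and the paraquat ratio in young share the H2O-Young values, so a low value there raises both, and the likeness of these comparisons is therefore given only as each gene's own values above.

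**Figure D2:**
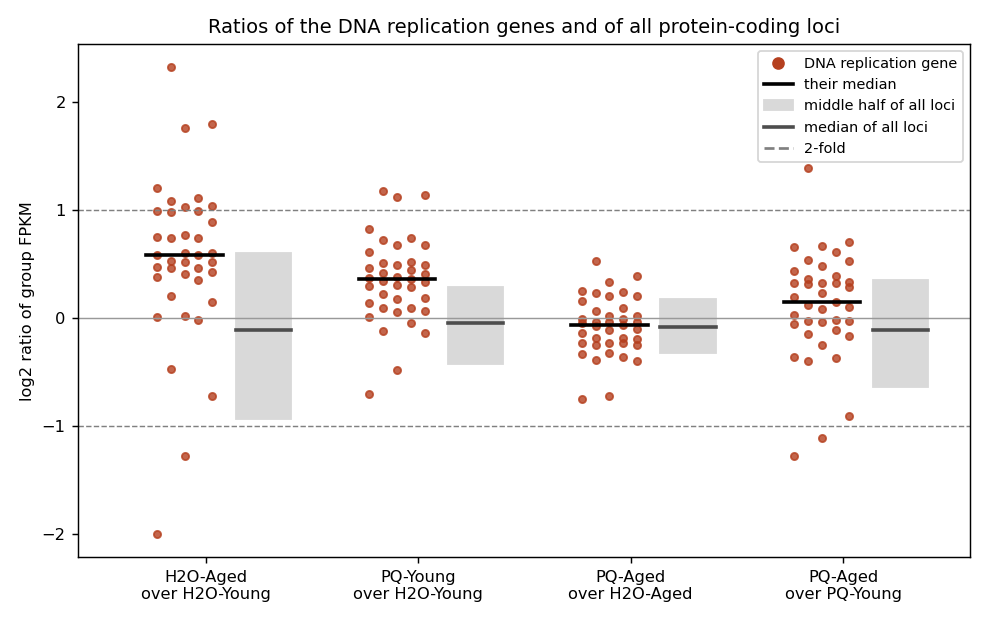
Log2 ratios of group FPKM in the 4 comparisons: points are the 39 DNA replication genes, black lines their median, grey boxes the middle 50% of the 9253 protein-coding loci with their median, and dashed lines mark 2-fold. The member medians of 0.59 with age in water and 0.36 with paraquat in young flies lie above those of all loci, while in aged flies the paraquat medians of members and loci, -0.06 and -0.08, are alike and both turn positive when the groups are scaled to Gapdh1.

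In aged flies, 13 of 39 members (33.3%) were above the water group after paraquat, against 41.8% of all loci. The member median was -0.06, against -0.08 for all loci. This member median turned to 0.49 when the groups were scaled to Gapdh1 and to 0.02 after quantile normalization. No member passed 2-fold in either direction, against 2.15% of all loci higher and 2.59% lower. Ratios reached from -0.75 for Orc2 to 0.53 for Psf3. Set beside the young flies, 24 members (61.5%) had a ratio above 1 in young and below 1 in aged flies, against 30.6% of all loci. Scaled to Gapdh1 this held for only 2 (5.13%), Orc1 and Orc2, and for 4.98% of all loci, nearly the same share. The 10 members above 1 at both ages were Mcm2, Mcm10, Orc4, Orc5, Cdc6, PolA1, PolD1, PolE1, RfC3 and Sld5. The paraquat ratio was smaller in aged than in young flies for 32 members (82.1%), against 51.3% of all loci, with a median difference of -0.43 against -0.02. Scaled to Gapdh1, this count became 10 (25.6%, against 18% of all loci) and the median difference turned to 0.22, against 0.63 for all loci. Under the other 3 scalings the count was 32 (median ratio), 31 (quantile) and 36 (summed FPKM), and the member median stayed below 0. The shares of all loci there were 53.1%, 53.5% and 71.7%. As deposited, the ratios were furthest apart for Orc1, at -1.44, RPA2, at -1.37, Orc2, at -1.37, and RfC38, at -1.26. This difference had no test, for want of values per library. Across the 39 genes the ratios at the 2 ages gave -0.24 (Pearson r) and -0.30 (Spearman rho), against -0.10 and -0.15 across 9149 loci, given as a description over genes that share libraries and are not replicates.

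**Figure D3:**
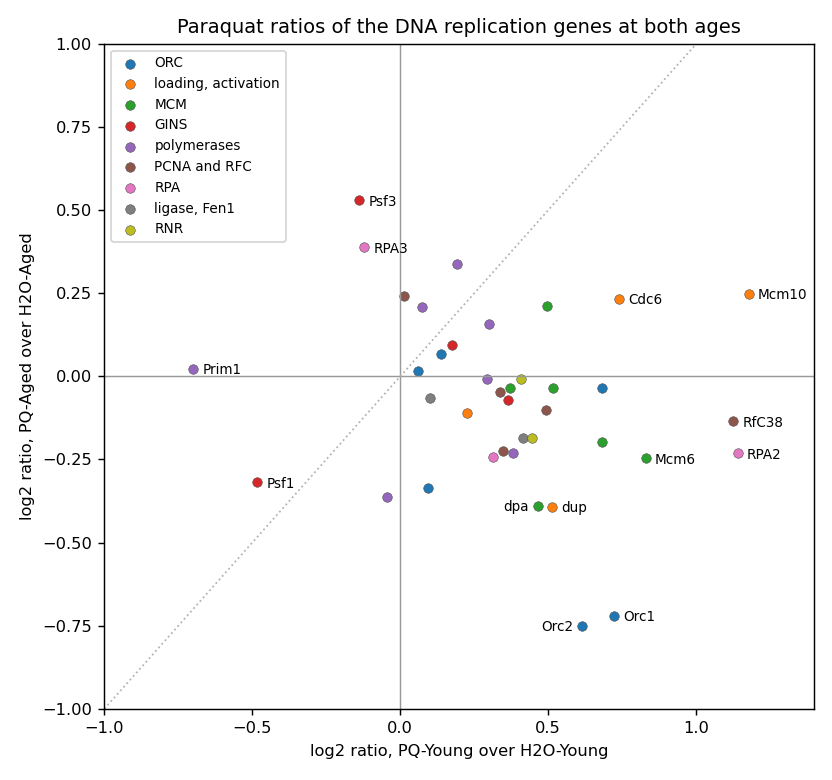
Log2 paraquat ratio of each of the 39 DNA replication genes in young flies (horizontal axis) and in aged flies (vertical axis), coloured by complex, with a dotted line where both are equal. Below that line lie 32 genes, and Orc1 and Orc2 combine ratios of 0.72 and 0.62 in young flies with ratios of -0.72 and -0.75 in aged flies. When the groups are scaled to Gapdh1, only 10 genes (25.6%) lie below the line, against 18% of all loci.

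Between the paraquat groups, 24 of 39 members (61.5%) were higher in PQ-Aged than in PQ-Young, against 43.6% of all loci. The member median was 0.16, against -0.11 for all loci. Only Mcm10 was at least 2-fold higher (2.56% of members, against 6.71% of loci), and the Prim1 locus, at 0.41-fold, and Psf1, at 0.46-fold, were 2-fold lower (5.13%, against 14.1%). Next to them lay lat at 0.53-fold on the lower side and RPA3 at 1.64-fold on the higher side.

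How far a ratio can be read depends on the scale of the groups, which differed. The FPKM summed over coding loci was 1648540 and 1221734 in young flies (water, paraquat) and 748213 and 733727 in aged flies, and the members' share of the FPKM summed over the filtered loci was 0.117%, 0.178%, 0.304% and 0.305%. RpL13A, the tagged protein's gene, was at 8001, 7306, 3849 and 3171 FPKM, and Gapdh1, a glycolytic enzyme used as a reference gene, at 846, 907, 654 and 447 FPKM. Other scalings moved the median ratio of all loci with age in water by 0.15 (median ratio), 0.18 (quantile), 0.37 (Gapdh1) and 1.14 (summed FPKM), and in the other comparisons by at most 1.02. Scalings by 1 factor per group shift members and loci alike, so the distance of the member median from that of all loci stayed at 0.69 with age in water, 0.40 with paraquat in young, 0.01 with paraquat in aged and 0.27 with age in paraquat. With age in water, the share of all loci higher and lower by 2-fold became 17.9% and 20.1% (median ratio), 15.9% and 17.3% (quantile), 24.4% and 15.4% (Gapdh1), and 51.0% and 6.21% (summed FPKM). With paraquat in young it became 10.5% and 4.16% (summed FPKM) and 4.00% and 6.82% (quantile), with paraquat in aged 10.5% and 1.02% (Gapdh1). With age in paraquat it became 8.65% and 11.6% (median ratio), 8.43% and 10.4% (quantile), 44.8% and 3.10% (Gapdh1), and 28.9% and 4.39% (summed FPKM). Of the members below their young level with age in water, lat, Psf3 and PolE1 turned above it when scaled by summed FPKM, while Psf1 and the Prim1 locus stayed below it.

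The age ratio in water differed between length classes of all loci. Among all loci with a longest transcript under 1000 bases the median age ratio in water was -0.92, but the 6 members of that length, Orc6, RPA2, RPA3, Psf1, Psf2 and Sld5, had a median of 0.60. From 1000 to under 2000 bases the medians were -0.19 for all loci and 0.43 for 11 members, and from 2000 to under 3000 bases 0.22 and 0.74 for 14 members. The 14 include Prim1 by the longest transcript of its shared locus, 2029 bases, while its own is 1569 bases. From 3000 to under 5000 bases they were 0.23 and 0.52 for 7 members, and from 5000 bases on the median of all loci was -0.04 and PolE1, the only such member, had -0.02. Members with lower levels had higher age ratios, with a Spearman rho of -0.45 between the mean log2 level and the ratio across the 39 genes and -0.12 across all loci, both without a test because the level enters the ratio.

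**Figure D4:**
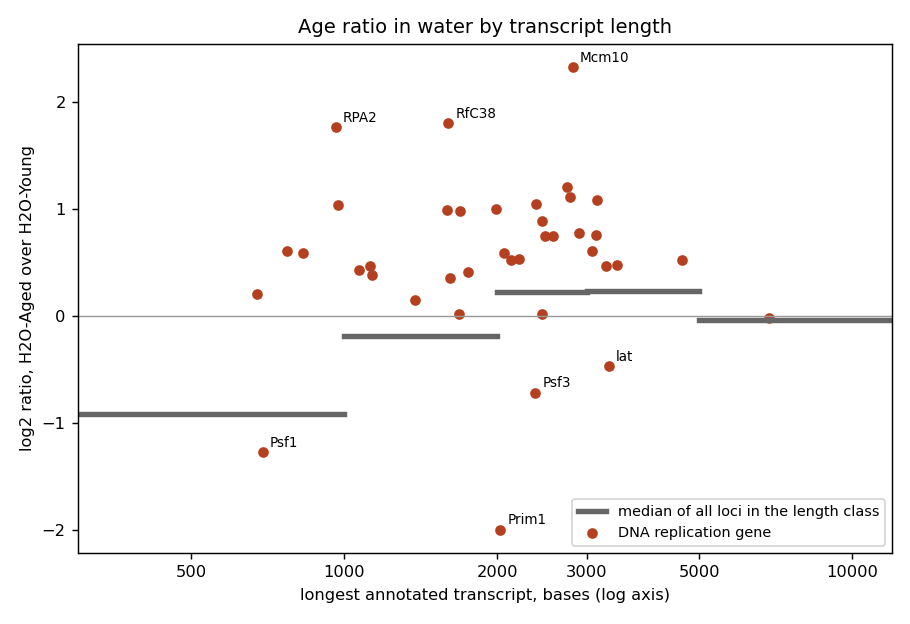
Log2 ratio of H2O-Aged over H2O-Young against the length of the longest annotated transcript (log axis) for the 39 DNA replication genes (points), with the median of all protein-coding loci in 5 length classes (bars). The bar under 1000 bases lies at -0.92 while the members of that class centre on 0.60, and lat, Psf3, Psf1 and Prim1 lie below 0 (lat and Psf3 not after scaling by summed FPKM). Prim1 is placed by the longest transcript of its shared locus, not by its own.

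Exons of 17 members overlap those of another gene, 16 of them on the opposite strand, and whether the reads were assigned by strand is not given in the sources used here. Without these and the shared Prim1 locus, the median age ratio in water of the remaining 21 members was 0.59, as before. Of the 8 members past 2-fold with age in water, RPA2 and Mcm6 are free of overlap, 2 of the 21, against 13.8% of all loci. Of the 3 past 2-fold with paraquat in young flies, RPA2 is, 1 of the 21, against 3.02% of all loci.

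Other genes of the pathway, from a list of 30 that holds origin firing factors, further polymerase and clamp loader subunits, topoisomerases, nucleases, chromatin assembly factors and nucleotide enzymes, had a median age ratio in water of 0.53 and a paraquat ratio of 0.42 in young and -0.11 in aged flies, the last positive after scaling to Gapdh1. With age in water 7 of 30 were 2-fold higher and 1 was lower, against 13.8% and 23.5% of all loci. Dna2, a nuclease and helicase, was at 0.41 and 0.83 FPKM in young flies (water, paraquat) and 2.65 and 1.73 in aged flies. Ctf4, which ties polymerase alpha to the helicase, had 7.46, 14.7, 21.2 and 19.9 FPKM. The TopBP1 homologue mus101, needed for origin firing, had 2.54, 3.49, 6.98 and 6.42 FPKM. These genes had low levels in H2O-Young, as Mcm10 and RfC38 did. Ts (thymidylate synthase) stood at 11.7, 17.1, 29.2 and 37.2 FPKM. Geminin, which binds and blocks the Cdt1 protein dup, was at 201, 296, 334 and 360 FPKM, well above dup itself. The abundant dUTPase, which keeps uracil out of DNA, had 521, 589, 648 and 669 FPKM. Top1, the swivel that relieves twist ahead of the fork, was the exception at 238, 157, 103 and 187 FPKM, and PCNA2, a second PCNA-like gene, was low at 2.03, 3.29, 1.80 and 1.25 FPKM.

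Genes that control entry into S phase, 13 in all, had a median age ratio in water of 0.60, a paraquat ratio of 0.28 in young flies and of 0.15 in aged flies, and 5 of them were 2-fold higher with age in water, against 13.8% of all loci. CycE, the cyclin that starts S phase, had 7.74 and 11.5 FPKM in young flies (water, paraquat) and 24.0 and 25.9 in aged flies. Its kinase partner Cdk2 was flat and more abundant, at 114.8, 127, 117 and 127 FPKM. The inhibitor of that pair, dacapo (dap), had 4.71, 7.62, 11.1 and 8.76 FPKM, so both the cyclin and its inhibitor were higher in the aged groups. Rbf2, a retinoblastoma-family repressor, had 2.67, 5.01, 10.1 and 6.79 FPKM, and CycD, a cyclin that acts on that family, had 10.4, 14.7, 27.6 and 22.9 FPKM. Dref, a transcription factor known to bind promoters of replication genes in the fly, had 8.69, 12.9, 19.0 and 16.4 FPKM. E2f2, the repressing E2F factor, had 76.6, 91.4, 101 and 127 FPKM, and Dp, the partner of both E2F factors, had 88.2, 71.6, 75.3 and 83.4 FPKM.

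Mitotic genes act after S phase and serve dividing cells, whereas endocycling cells use the replication genes without them. Their median age ratio in water was 0.86 over 14 genes, with 7 at least 2-fold higher and none lower (13.8% and 23.5% of all loci), and the paraquat ratio was 0.50 in young and -0.13 in aged flies, the last positive after scaling to Gapdh1. CycB, the mitotic cyclin, had 249 and 404 FPKM in young flies (water, paraquat) and 655 and 579 in aged flies. Cdk1, its kinase, had 39.2, 55.7, 90.1 and 62.0 FPKM, and pim, the fly securin, had 12.7, 21.9, 46.1 and 43.8 FPKM. All 3 were highest in H2O-Aged, as were 22 of the 39 DNA replication genes and 27% of all loci. The kinase aurA had 13.0, 26.04, 38.8 and 36.7 FPKM, the checkpoint kinase BubR1 3.26, 5.93, 8.63 and 8.18 FPKM, and the kinesin pav 7.79, 12.8, 19.4 and 17.5 FPKM. CycA had 142, 135, 207 and 197 FPKM, and stg, the Cdc25 phosphatase that starts mitosis, had 85.7, 118, 139 and 108 FPKM.

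**Figure D5:**
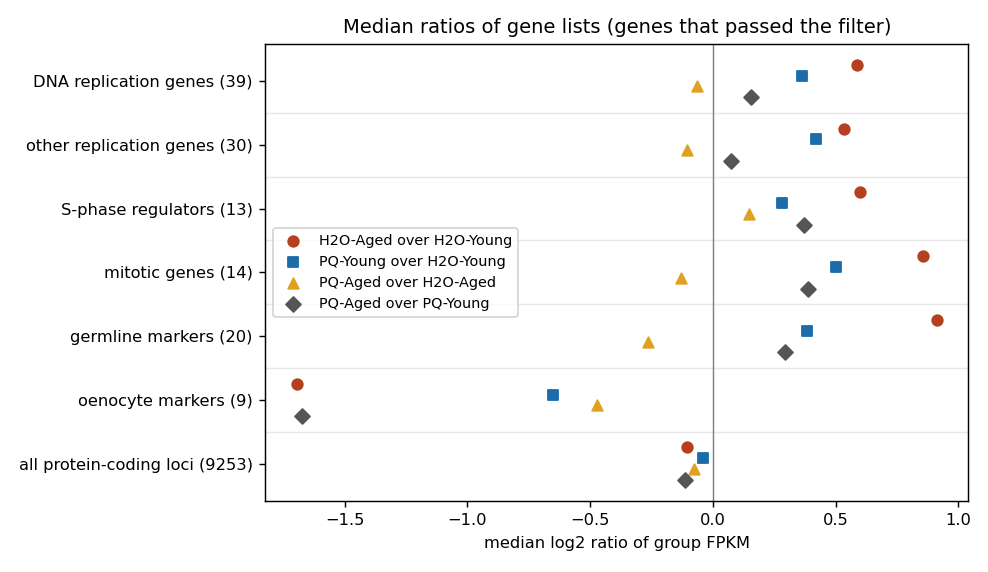
Median log2 ratio of group FPKM for gene lists in the 4 comparisons (symbols), with the number of genes that passed the filter in brackets. The DNA replication genes (0.59 with age in water), the other cell cycle lists and the germline markers (0.91) lie above 0 with age and also with paraquat in young flies, the oenocyte markers (-1.69) on the other side, and the paraquat medians in aged flies that are below 0 for the lists plotted turn positive when scaled to Gapdh1.

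Markers of several other cell types differed between the same groups. Of 22 germline markers, 21 had a locus and 20 passed the filter, and their summed FPKM was 961 and 1116 in young flies (water, paraquat) and 1646 and 1636 in aged flies. With age in water 18 of the 20 were higher, 9 of them by 2-fold (46.2% and 13.8% of all loci), and their median was 0.91, while it was 0.39 with paraquat in young and -0.26 in aged flies (positive when scaled to Gapdh1). The germline helicase gene vas, whose value is shared with solo, was at 44.2, 66.5, 121 and 163 FPKM. The germline stem cell differentiation gene bam was at 1.36, 2.09, 5.71 and 4.96 FPKM, while nos stayed at or below 0.33 FPKM. As deposited, the 20 eggshell and follicle cell genes went the other way, each at least 2-fold lower with age in water and with paraquat in young flies (23.5% and 8.65% of all loci). Their summed FPKM was 17206, 3782, 2162 and 2267. Scaled by summed FPKM, fewer of them passed 2-fold, and Cp15 did so in neither comparison. Of the oenocyte markers, 9 passed the filter and 7 were 2-fold lower with age in water as deposited (23.5% of all loci), fewer when scaled by summed FPKM. Their summed FPKM was 40418, 22811, 6414 and 5327, and Cyp4g1 is listed at 0 in all groups as a failed estimate. Of the 6 muscle markers, 5 were higher with age in water, as most replication genes were, and 2 by 2-fold (46.2% and 13.8% of all loci). The muscle gene up was lower, at -0.93. The muscle medians were 0.82 with age in water, 0.64 with paraquat in young and -0.10 in aged flies (the last positive when scaled to Gapdh1). Their summed FPKM was 257, 318, 284 and 264. For the other marker lists the medians with age in water were -2.41 for 5 fat body, -2.07 for 5 midgut and -1.19 for 5 neuron markers and 0.84 for the 2 hemocyte markers that passed the filter. The part of RNA from any of these cell types in the values of the replication genes was not tested. In such pulldowns fewer cells of a type and less RNA per cell cannot be told apart.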

How the data were processed

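Ribosome-bound RNA of 12 libraries was measured in 4 groups of 3. Per the labels, the authors used TopHat2, Cufflinks and Cuffdiff with the dm6 build, and the deposited FPKM values are Cuffdiff's estimates, 1 per locus and group with the 3 libraries pooled. They do not give the depth of a library, so no interval or test was possible. The columns of the authors' own comparisons (log2 fold change, test statistic, p-value, q-value and significance) were not used. Whether the counting used strand, and how reads with several matches were treated, is not given in the sources used here.

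RefSeq accessions were matched to symbols and to the Ensembl 115 annotation of the same build (201 of 30550 accessions did not match). From the group FPKM, ratios were computed with Python 3.11.15, pandas 2.3.3 and numpy 2.4.6, and plotted with matplotlib 3.10.9. Protein-coding loci with at least 1 FPKM in at least 1 group were kept (9253 of 13299), without pseudocount. A locus at 0 in 1 of 2 groups counts by its direction and has no log2 ratio. Of the coding loci, 483 share their value among at least 2 genes, and 87 loci of the table have a failed estimate in at least 1 pair. The calculation was tested on simulated data.

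Every DNA replication gene is described. Of the other lists, the text names the 3 genes with the highest summed FPKM and up to 6 past 2-fold, those with the largest ratios. The members and lists were chosen with earlier results of these data known. Alternatives were a pseudocount of 1, no filter and a minimum of 5 FPKM, 4 scalings, 1.5-fold, and leaving out shared loci or, chosen after seeing the data, members with exon overlap, and the 4 scalings for the counts of patterns over the groups. Promoters and sequences were not analysed here.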

Additional observations from a re-analysis of the deposited data

How the results depend on the processing

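No paired analysis was possible because the deposited values are pooled over the libraries of a group and carry no replicate numbers. For the same reason no library could be left out, and the precision of a group value is unknown. The alternatives below changed no sign of the member median except with paraquat in aged flies, where it became 0.49 after scaling to Gapdh1 and 0.016 after quantile normalization. The causes follow from the construction of the alternatives, since scalings by 1 factor per group add a shift and fewer members or another fold change a count. Quantile normalization works by rank and is not 1 shift. Under it the distance of the member median from that of all loci was 0.68 with age in water and 0.34 with paraquat in young. It was 0.02 with paraquat in aged and 0.32 with age in paraquat.

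With age in water, the member median became 0.74 (median ratio), 0.75 (quantile), 0.96 (Gapdh1) and 1.73 (summed FPKM). It became 0.26 (Gapdh1) and 0.80 (summed FPKM) with paraquat in young, and 0.27 (median ratio), 0.34 (quantile), 1.18 (Gapdh1) and 0.89 (summed FPKM) with age in paraquat.

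The number of members at least 2-fold higher with age in water became 16 (Gapdh1, 24.4% of all loci) and 35 (summed FPKM, 51.0%). At 1.5-fold it was 20 of 39, against 25.8% of all loci past that fold. Without members that overlap another gene's exons it was 2 of 21, against 13.8% of all loci. With paraquat in young it became 9 (summed FPKM, 10.5% of all loci), 9 at 1.5-fold (10.1%) and 1 of 21 without overlaps (3.02%). With paraquat in aged it became 1 (Gapdh1, 10.5% of all loci). With age in paraquat it became 2 (quantile, 8.43% of all loci), 26 (Gapdh1, 44.8%) and 17 (summed FPKM, 28.9%). It was 5 at 1.5-fold (16.3% of all loci) and 0 of 21 without overlaps (6.71%). The number at least 2-fold lower with age in water became 1 (Gapdh1, 15.4% of all loci) and 0 (summed FPKM, 6.21%). It was 1 without shared loci (23.6%) and 1 without overlaps (23.5%). It became 1 at 1.5-fold with paraquat in young (18.9% of all loci) and 2 at 1.5-fold in aged flies (9.96% of all loci). With age in paraquat it became 1 (median ratio, 11.6% of all loci), 1 (quantile, 10.4%), 0 (Gapdh1, 3.10%) and 0 (summed FPKM, 4.39%). It was 1 without shared loci (14.2%) and 1 without overlaps (14.1%). The pseudocount and the filters on low values left each count within 1.5 times and each median within 0.1.

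Scaled to Gapdh1, the members whose paraquat ratio was smaller in aged than in young flies became 10 of 39 (25.6%), against 18% of all loci. The median difference turned to 0.22, against 0.63 for all loci. Members higher in young and lower in aged flies became 2 (5.13%), against 4.98% of all loci.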

Other observations

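Some genes that start S phase did not share the pattern of the DNA replication genes, and they were chosen after their values were seen. E2f1, the activating E2F factor, was at 35.3 and 30.9 FPKM in young flies (water, paraquat) and 19.1 and 28.0 in aged flies. Cdc7, the kinase that fires origins, had 60.6, 73.5, 46.3 and 36.2 FPKM. Both genes were lower in both aged groups than in both young groups, and after scaling by summed FPKM each was above its young level in H2O-Aged.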
